A study of Mus musculus with 8 samples.

Results

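The Nr4a orphan nuclear receptors are 3 genes, Nr4a1 (NUR77), Nr4a2 (NURR1) and Nr4a3 (NOR1), taken by symbol from the 23183 genes counted in each of 8 mRNA-seq libraries of cultured mouse lung ILC2s. They were singled out with their response in these libraries already known, so their Yoda1 and DMSO values are given as a description and carry no test. All 3 had enough counts to enter the comparison, among 12239 genes that did. NR4A proteins are transcription factors of the nuclear receptor family that act without a known endogenous ligand, since the ligand pocket is filled by bulky side chains, and their activity is set mainly by how much protein is made. Their genes are primary response genes, transcribed within minutes to hours of calcium, cAMP or antigen receptor signals through CREB and MEF2 sites. In lymphocytes they are known as readouts of receptor signalling and as regulators of T cell tolerance, exhaustion and survival.

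The libraries came from lung ILC2s of mice labelled C57BL/6 (C57BL/6 J in the methods), the innate lymphoid cells that make IL-5 and IL-13. Per the study's methods, cultured lung ILC2s were enriched with a pan-ILC kit and CD45 microbeads from mice given IL-33, and grown with IL-2, IL-7 and IL-33, so both groups had these cytokines. The Yoda1 group (n = 4) received 5 µM Yoda1, a chemical agonist of the mechanosensitive cation channel Piezo1, and the methods give 3 h of stimulation. The DMSO group (n = 4) received 0.1% DMSO, the vehicle. The methods state that wild-type mice of both sexes were used. No source used here ties the samples to separate mice or cultures, so errors and p-values cover only the spread between these samples, which may be technical.

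Library totals ran from 12438009 to 19534653 counts, and values below are CPM, that is, counts divided by the TMM-scaled size of the library and put on the same total for all 8. All 13 ILC2 markers were measured, with summed levels of 17900 to 18400 CPM in DMSO and 20100 to 20500 CPM in Yoda1. Of these, 6 were called higher (Il13, Arg1, Areg, Il5, Il1rl1 and Thy1) and 1 lower (Icos) at an adjusted p under 0.05 in edgeR. Over all genes tested, 6.04% were called higher and 4.84% lower. Il13 had the largest part in the rise of the sum, from a mean of 5430 to 6670 CPM. Gata3 was at 565 CPM in both groups, and Rora, Id2, Klrg1, Il7r and Il2ra were not called either. The 7 T cell markers summed to 70.5 to 78.1 CPM in DMSO and 76.0 to 86.1 CPM in Yoda1, and none passed the test. The 6 NK cell and ILC1 markers summed to 774 to 857 CPM and 834 to 902 CPM, and 3 of them (Tbx21, Eomes and Prf1) were called higher. Most of that sum was Prf1 and Gzma, at 385 and 344 CPM in DMSO, and Gzma was not called. Ncr1 and Klrb1c were at 4.42 and 6.07 CPM in DMSO and were not called. The B cell markers summed to 5.32 to 7.07 CPM and 5.54 to 7.2 CPM, nearly all Cd79b, and the 6 macrophage and dendritic cell markers to 9.64 to 11.8 CPM and 9.62 to 11.5 CPM, nearly all Itgax and Cd68. The ILC3 markers stayed at or below 2.01 CPM in sum, and the mast cell and basophil markers at or below 5.54 CPM. The 6 epithelial, endothelial and fibroblast markers summed to 213 to 227 CPM and 218 to 223 CPM, nearly all Pecam1. Within these lists Sftpc was at 0 in every library, Ms4a1, Lyz2, Csf1r and Mrc1 never passed 3 counts, and no gene was called. The part of other cells in the Nr4a values was not tested, and in bulk RNA a change in the number of cells of a type cannot be told apart from a change in RNA per cell.

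The sequence upstream of each start site is printed because all 3 genes share a feature there that the choice of genes did not use. Capitals mark the core CREB motif TGACG or its reverse complement CGTCA, searched on both strands, in RefSeq promoter windows of the GRCm38.p6 build. Only bases upstream of the first exon base in each window are shown, none of them in a GENCODE exon, 5′ to 3′ on the gene's strand. They cover chr15:101266596-101266845 on the plus strand for Nr4a1, chr2:57124004-57124253 on the minus strand for Nr4a2 and chr4:48045055-48045152 on the plus strand for Nr4a3.
Nr4a1: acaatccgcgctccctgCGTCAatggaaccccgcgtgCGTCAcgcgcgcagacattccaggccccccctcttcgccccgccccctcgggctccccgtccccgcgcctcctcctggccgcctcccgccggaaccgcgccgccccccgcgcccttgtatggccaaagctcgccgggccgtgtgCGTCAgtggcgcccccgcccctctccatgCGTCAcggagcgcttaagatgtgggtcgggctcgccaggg
Nr4a2: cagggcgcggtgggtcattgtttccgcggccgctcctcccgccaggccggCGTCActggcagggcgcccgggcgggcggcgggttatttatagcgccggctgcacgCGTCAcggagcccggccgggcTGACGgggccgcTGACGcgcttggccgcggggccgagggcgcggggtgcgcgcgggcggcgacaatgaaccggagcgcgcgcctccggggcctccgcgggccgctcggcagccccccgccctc
Nr4a3: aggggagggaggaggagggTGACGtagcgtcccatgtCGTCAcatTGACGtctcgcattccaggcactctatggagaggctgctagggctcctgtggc

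Each of the 3 windows, which run from 250 bases before to 50 after the RefSeq start, held 4 copies of the motif. In Nr4a1 they began at positions -233, -213, -69 and -40 from the start and all lay on the strand opposite the gene. In Nr4a2 they began at -200, -144, -123 and -111, with the strands mixed. In Nr4a3 they began at -231, -213, -205 and -147, and the last of these lies inside the first GENCODE exon and is not printed. Among 32851 promoters in the table, 20.8% held at least 1 copy and 76 (0.231%) held 4 or more. The share with 4 or more was 0.476% among the 3148 promoters with at least 70% G and C, and the GC content was 72.3% in Nr4a1, 81.7% in Nr4a2, 64.7% in Nr4a3 and 52.7% in the median promoter. The minimum of 4 copies was chosen after the matches were seen. The full palindromic CRE TGACGTCA, found in 1.79% of promoters, was in none of the 3 windows. The NBRE AAAGGTCA, the site that an NR4A monomer binds, was in 1.51% of promoters and also in none of the 3. The exact AP-1 pattern TGANTCA (7.81% of promoters) and the CArG box pattern (1.63%) had no match in these windows either. Looser forms of these sites were not searched, so their presence is not settled. The Sp1 motif GGGCGG, found in 35.7% of promoters, occurred 3, 5 and 1 times in Nr4a1, Nr4a2 and Nr4a3, and the EGR motif GCGNGGGCG (5.55%) occurred once in Nr4a1 and Nr4a2. Nr4a2 alone had a MEF2 match (3.19% of promoters), which overlapped a TATAAA match (13.6%) on the strand opposite the gene. A match is a run of letters and no evidence of binding.

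**Figure D1:**
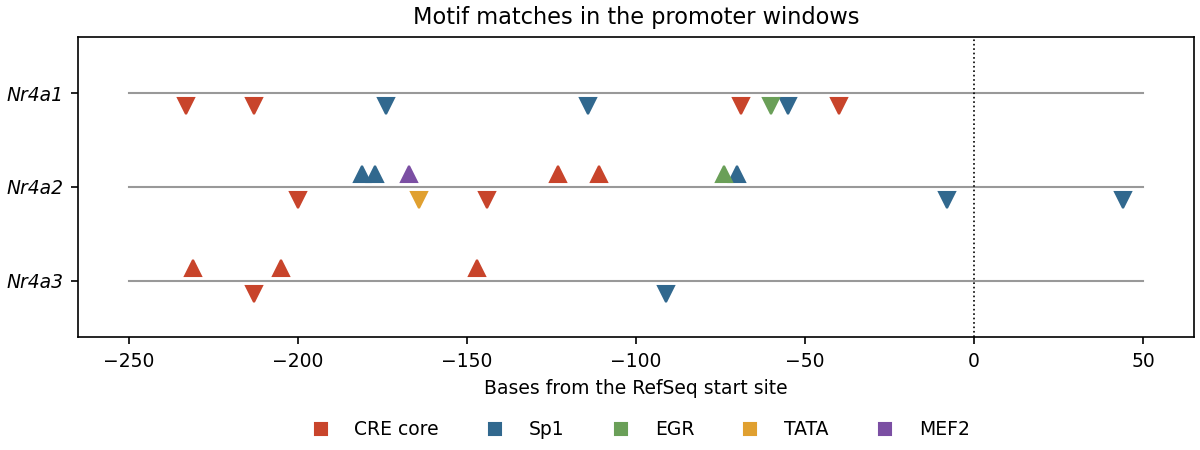
Motif matches by distance in bases from the RefSeq start site (0, dotted line) in the promoter windows of the 3 genes, upward triangles for the gene's strand and downward triangles for the other strand. Each gene has 4 core CRE motifs (red), all upstream of the start.

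The start sites need care. The Nr4a1 window belongs to a shorter transcript, and the principal transcript of GENCODE starts 12577 bases further upstream. The RefSeq start of Nr4a2 lies 8965 bases upstream of its principal transcript, and that of Nr4a3 lies 152 bases downstream of the GENCODE start. Counts per gene cannot tell which start the ILC2s used.

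In GENCODE M21 (GRCm38) Nr4a1 (ENSMUSG00000023034.7) spans chr15:101254269-101274795 on the plus strand, Nr4a2 (ENSMUSG00000026826.13) spans chr2:57106830-57124003 on the minus strand and Nr4a3 (ENSMUSG00000028341.9) spans chr4:48045153-48086447 on the plus strand. The principal transcript of each has 8 exons, and the exons of all transcripts together cover 3509, 4059 and 5987 bases. No exon of another gene overlaps them, and of the 50-base words in their transcripts none of 3499 in Nr4a1, none of 4146 in Nr4a2 and 9 of 5986 in Nr4a3 (0.15%) occur in any other gene. The 3 genes share no such word with each other.

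All 3 genes were higher in Yoda1-treated ILC2s, with no overlap between the groups. The rise was 1.68-fold for Nr4a1, 2.84-fold for Nr4a3 and 4.32-fold for Nr4a2, so the gene with the lowest level in DMSO had the largest ratio. Over all genes tested 6.04% were called higher and 4.84% lower at a Benjamini-Hochberg adjusted p under 0.05 in edgeR (quasi-likelihood fit), and 8.44% were higher with no overlap between the groups. Since the members were chosen on this contrast, nothing is read from their own count against these shares.

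Nr4a1, whose protein is used as a reporter of antigen receptor signalling in T cells, had 28.6, 27.55, 28.65 and 30.75 CPM in DMSO replicates 1 to 4 and 50.46, 48.82, 48.21 and 46.19 CPM in Yoda1 replicates 1 to 4. The groups lay far apart for their spread, with the lowest Yoda1 library 1.5 times the highest DMSO library. The mean went from 28.89 ± 1.341 to 48.42 ± 1.764 CPM (SD, n = 4), a log2 fold change of 0.75 (SE 0.055). These values rest on 416 to 503 reads in a DMSO library and 625 to 898 in a Yoda1 library. The coefficient of variation between replicates was 4.64% in DMSO and 3.64% in Yoda1, about what counting alone gives at these depths (4.69% and 3.71%).

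Nr4a2, best known for its part in the development of dopamine neurons, had 4.068, 4.491, 7.033 and 6.8 CPM in the DMSO replicates and 25.51, 24.72, 22.87 and 22.73 CPM in the Yoda1 replicates. DMSO replicates 1 and 2 were the low pair and replicates 3 and 4 the high pair, and every Yoda1 library was at least 3.23 times every DMSO library. The mean went from 5.598 ± 1.535 to 23.96 ± 1.375 CPM (SD, n = 4), a log2 fold change of 2.11 (SE 0.12) that ranked 4 among the 12239 genes. Only 65 to 110 reads per library stand behind the DMSO values, against 305 to 442 in Yoda1. Even so, the DMSO spread (27.4%) was above the counting error of 10.9%, while the Yoda1 spread of 5.74% was close to its counting error of 5.28%.

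Nr4a3, which acts with Nr4a1 as a redundant regulator in several blood cell types, had 16.34, 21.52, 25.64 and 26.98 CPM in the DMSO replicates and 62.08, 69.1, 60.96 and 62.7 CPM in the Yoda1 replicates. DMSO replicates 1 and 2 were again the lowest, and the lowest Yoda1 library was 2.26 times the highest DMSO library. The mean went from 22.62 ± 4.789 to 63.71 ± 3.664 CPM (SD, n = 4), a log2 fold change of 1.50 (SE 0.13) that ranked 12, whereas Nr4a1 ranked 65. The counts ran from 261 to 401 in DMSO and from 769 to 1219 in Yoda1. The spread was 21.2% in DMSO and 5.75% in Yoda1, with counting errors of 5.39% and 3.25%.

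**Figure D2:**
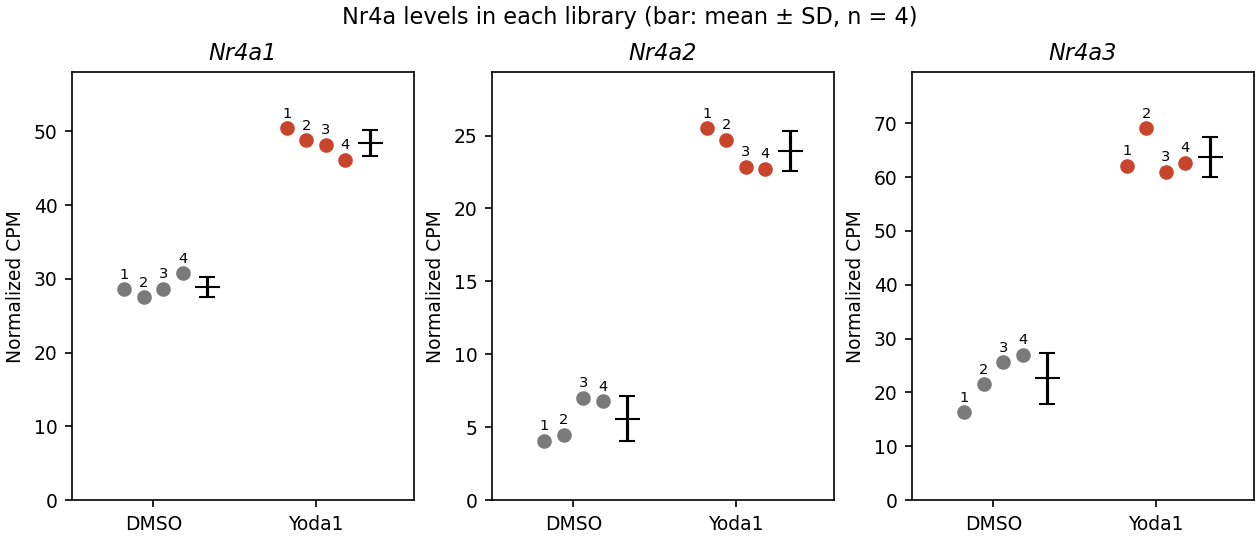
Normalized CPM of each Nr4a gene in the 4 DMSO (grey) and 4 Yoda1 (red) libraries, numbered by replicate, with the mean ± SD beside them. The groups do not overlap for any of the 3 genes, and DMSO replicates 1 and 2 are the lowest libraries for Nr4a2 and Nr4a3.

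For Nr4a2 and Nr4a3 the vehicle libraries varied more than the treated ones. The highest DMSO library exceeded the lowest by 1.73 times for Nr4a2 and 1.65 times for Nr4a3, against 1.12 times for Nr4a1, and in Yoda1 the same ratio was 1.09 for Nr4a1, 1.12 for Nr4a2 and 1.13 for Nr4a3. With each library left out in turn the log2 fold change ran from 0.72 to 0.77 for Nr4a1, from 1.99 to 2.25 for Nr4a2 and from 1.38 to 1.59 for Nr4a3, and the lowest value for Nr4a3 came without DMSO replicate 1. Over all genes tested, DMSO replicate 1 was the lowest of its group for 28.0% and the highest for 30.1%. It was the lowest for 7 and the highest for 7 of 25 other primary response genes, and the lowest for 3 and the highest for none of 6 NK cell and ILC1 markers. DMSO replicate 4, the highest for Nr4a1 and Nr4a3, was the highest for 24.1% of all genes, for 12 of those 25 and for 4 of those 6. Yoda1 replicate 1, the highest for Nr4a1 and Nr4a2, was the lowest for 13 of the 25 (52.0%, against 25.1% of all genes). The part of these differences in the Nr4a spread was not tested.

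Per length of transcript the order of the 3 genes was the same in both groups, Nr4a1 first, Nr4a3 next and Nr4a2 last. Per kilobase of exon, Nr4a1 was at 8.232 ± 0.3821 CPM in DMSO and 13.8 ± 0.5026 in Yoda1. Nr4a3 was at 3.778 ± 0.7998 and 10.64 ± 0.612, and Nr4a2 at 1.379 ± 0.3782 and 5.902 ± 0.3387 (SD, n = 4 each). Within a group no library of one gene reached the range of the next, and in Yoda1 the ranges of Nr4a1 and Nr4a3 were 13.16 to 14.38 and 10.18 to 11.54. The order by CPM, which is not corrected for length, put Nr4a3 above Nr4a1 in Yoda1. With the longest transcript as the length, Nr4a1 stood at 11.31 in DMSO and 18.97 in Yoda1 and the order stayed the same.

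The gain in level spanned a narrower range than the ratios did. Per kilobase of exon, 5.57 ± 0.316 CPM (SE) were added for Nr4a1, 4.52 ± 0.254 for Nr4a2 and 6.86 ± 0.504 for Nr4a3. The order of these gains depended on the length used. With the longest transcript, Nr4a1 went from 11.31 to 18.97 and Nr4a3 from 3.954 to 11.14, so Nr4a1 then gained most. The sums and shares below use exon length only. The summed level of the family per kilobase was 13.4 ± 1.42 CPM in DMSO and 30.3 ± 1.12 in Yoda1 (SD, n = 4). Nr4a1 made up 61.8% ± 4.99 of that sum in DMSO and 45.5% ± 1.13 in Yoda1. The share of Nr4a3 was 28.0% ± 3.43 and 35.1% ± 1.41, and that of Nr4a2 was 10.2% ± 1.84 and 19.4% ± 0.548. None of these 3 shares overlapped between the groups, which is given as a description like the levels it is made from.

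**Figure D3:**
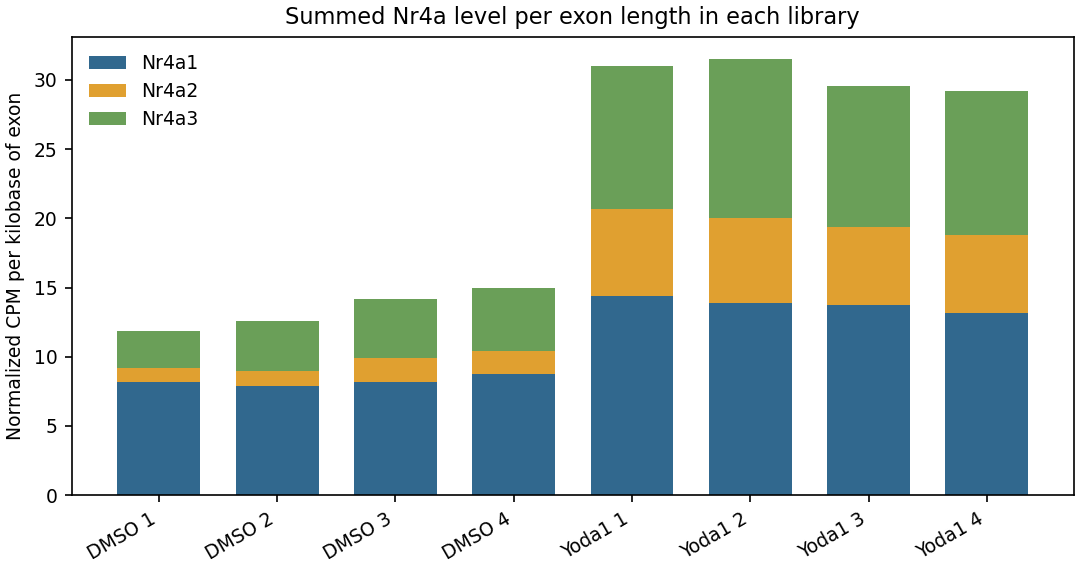
Normalized CPM per kilobase of exon for Nr4a1 (blue), Nr4a2 (orange) and Nr4a3 (green), stacked for each library. The DMSO stacks reach 11.9 to 14.9 and the Yoda1 stacks 29.2 to 31.5, with a larger part for Nr4a2 and Nr4a3 in Yoda1.

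Of 46 other nuclear receptor genes, 21 had enough counts, and 2 rose and 2 fell (9.52% each way, against 6.04% higher and 4.84% lower over all genes), with a median log2 fold change of 0.059 against -0.0053 over all genes tested. This list and those below were chosen with earlier results of these data known, so their shares are a description. The 4 calls fell to 1 without DMSO replicate 2 and to 2 without DMSO replicate 3 or without Yoda1 replicate 2. Nr1d1, the haem-binding clock repressor REV-ERBα, rose from 11.26 ± 2.035 to 16.94 ± 0.6279 CPM (SD, n = 4; log2 fold change 0.57, adjusted p = 0.000139 by edgeR with Benjamini-Hochberg adjustment). Thra, a thyroid hormone receptor that shares 263 exon bases with Nr1d1 on the opposite strand, rose from 10.41 ± 1.421 to 13.07 ± 0.8726 CPM (edgeR adjusted p = 0.0303, and 0.00697 to 0.111 over the alternatives, of which 8 lost the call). The strand setting of the counting is not given in the sources used here, so the reads of this pair may not be separate. Thrb fell by 0.92 on the log2 scale from 2.421 CPM (edgeR adjusted p = 0.0235, 0.00293 to 0.115 over the alternatives, of which 4 lost the call). Its groups overlapped, and it had as few as 9 reads in a library. Rxra, a retinoid X receptor that pairs with Nr4a1 and Nr4a2 but not Nr4a3, fell from 22.34 ± 1.303 to 18.63 ± 1.4 CPM (edgeR adjusted p = 0.0138, 0.00669 to 0.0651 over the alternatives, of which 3 lost the call). Its relative Rxrb had a log2 fold change of 0.08 (SE 0.051) with an edgeR adjusted p of 0.332.

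The receptors that lead this family in ILC2s were not among those called. Pparg, a lipid-sensing receptor known in ILC2s, had 112.1 CPM per kilobase in DMSO and 117.4 in Yoda1, the glucocorticoid receptor Nr3c1 had 83.46 and 82.81, and Rora, which ILC2s need to develop, had 45.13 and 46.21. These held the first 3 places, in this order, in both groups among the 24 nuclear receptor genes with enough counts, members included. Their log2 fold changes were 0.07 (SE 0.037), -0.01 (SE 0.041) and 0.03 (SE 0.049). The vitamin D receptor Vdr had 0.06 (SE 0.068). In this order by level per kilobase Nr4a1 moved from place 10 to 8, Nr4a3 from 16 to 11 and Nr4a2 from 21 to 13.

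**Figure D4:**
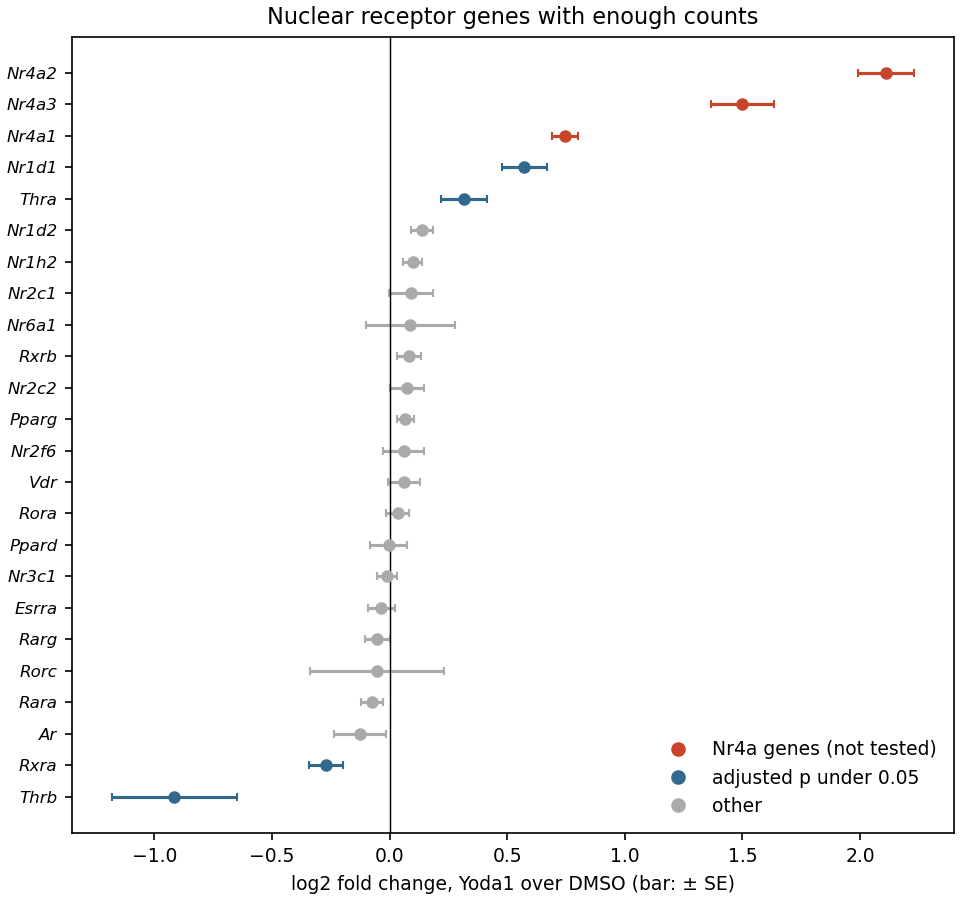
Log2 fold change of Yoda1 over DMSO with its SE for the 24 nuclear receptor genes with enough counts. The 3 Nr4a genes (red, not tested) lie at 0.75 to 2.11, and the other 21 lie between -0.92 and 0.57, 4 of them called (blue).

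A list of 27 genes that act upstream of Nr4a transcription held MEF2 factors, the class IIa deacetylases that hold them back, calcineurin and NFAT. It also held CREB and its coactivators, and Cabin1, Srf, Prkd2 and Mapk7. Of these 27 genes 25 were tested, 3 rose (12%) and 2 fell (8.0%), against 6.04% higher and 4.84% lower over all genes. The median log2 fold change was 0.018. Crem, whose ICER products repress CREB targets, rose from 156.4 ± 6.778 to 186.9 ± 5.669 CPM (edgeR adjusted p = 2.72e-05). Nfatc2 fell from 337 ± 23.2 to 277 ± 17.93 CPM (edgeR adjusted p = 0.000833), although its groups overlapped. The calcineurin subunit Ppp3cc fell from 63.85 ± 3.511 to 56.24 ± 1.243 CPM (edgeR adjusted p = 0.0117, and 0.0561 without DMSO replicate 4). Mef2d rose from 65.25 ± 1.983 to 73.94 ± 3.284 CPM (edgeR adjusted p = 0.00805). Crem and Mef2d share 472 and 531 exon bases with another counted gene on the opposite strand. With the strand setting not given, their reads may not be separate from those of that gene. Nfatc1 rose from 76.66 ± 4.702 to 84.99 ± 2.821 CPM (edgeR adjusted p = 0.0346, and 0.0177 to 0.118 over the alternatives, of which 9 lost the call). Mef2a had 0.13 on the log2 scale (SE 0.050, edgeR adjusted p = 0.107), Mef2c -0.44 at 1.452 CPM (SE 0.28, adjusted p = 0.34) and Hdac7, which binds MEF2 at the Nr4a1 promoter in thymocytes, -0.04 (SE 0.058, adjusted p = 0.745). Over the 25 genes the log2 fold changes ran from -0.44 to 0.26, while the Nr4a transcripts were at 0.75 to 2.11.

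Of 21 genes for dimer partners, coregulators and modifiers of NR4A proteins, 20 were tested, none rose and Rxra alone fell (5.0%, against 4.84% of all genes), with a median of -0.0049. No gene of this list was called without DMSO replicate 2 or without DMSO replicate 3, and 2 were called without DMSO replicate 1. Bcl2, the survival protein to which Nr4a1 protein can bind at mitochondria, was at 484.6 ± 15.29 and 458.3 ± 18.29 CPM (log2 fold change -0.08, SE 0.037, edgeR adjusted p = 0.165).

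Genes linked to NR4A factors in T cells were divided. Of 16 listed symbols 15 were tested, 4 rose (26.7%) and none fell, against 6.04% higher and 4.84% lower over all genes, with a median log2 fold change of 0.026. The symbols were listed with earlier results of these data known. The 4 were inhibitory receptors, but not every inhibitory receptor gene of the list was called. Without DMSO replicate 1, 5 genes rose and 2 fell. Ctla4 rose from 15.7 ± 1.437 to 25.03 ± 2.979 CPM (SD, n = 4; log2 fold change 0.67, edgeR adjusted p = 1.55e-06) and Havcr2 (TIM-3) from 56.85 ± 4.131 to 83.19 ± 1.873 CPM (0.55, adjusted p = 1.42e-09). Lag3 rose from 11.98 ± 1.361 to 16 ± 0.8088 CPM (0.41, edgeR adjusted p = 0.00181) and Pdcd1 (PD-1) from 139.3 ± 9.945 to 173.9 ± 3.61 CPM (0.32, adjusted p = 4.03e-06). Tox, the exhaustion factor that acts beside NR4A proteins in T cells, was at 6.623 ± 0.5687 and 6.903 ± 0.4448 CPM, and Irf4 was at 321.1 ± 15.56 and 318.1 ± 14.07 CPM. Neither passed the test (edgeR adjusted p = 0.801 and 0.871).

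Of 8 BCL2 family and death ligand genes linked to Nr4a1, 3 rose (37.5%) and none fell, against 6.04% higher and 4.84% lower over all genes, with a median log2 fold change of 0.068. They too were listed with earlier results of these data known. Fasl, the ligand of the death receptor Fas, rose from 8.794 ± 1.786 to 12.91 ± 1.328 CPM (log2 fold change 0.57, edgeR adjusted p = 0.00105), although DMSO replicate 4, at 11.46 CPM, lay within the Yoda1 range. The BH3-only genes Bcl2l11 (BIM) and Pmaip1 (NOXA) had log2 fold changes of 0.46 and 0.27 (edgeR adjusted p = 0.00173 and 2.55e-06).

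Other rapid primary response genes were also higher. Of 26 listed, 25 were tested, 15 rose (60.0%) and none fell, against 6.04% higher and 4.84% lower over all genes, with a median log2 fold change of 0.33. Because the list was chosen with earlier results of these data known, its share is a description and no independent support. The zinc finger factors Egr3 and Egr2 rose from 12.42 ± 2.202 to 32.17 ± 1.212 CPM and from 6.215 ± 1.269 to 16.09 ± 1.734 CPM (log2 fold changes 1.39 and 1.38, edgeR adjusted p = 6.31e-13 and 9.96e-10), and the AP-1 subunit Fosb rose by 1.34 on the log2 scale from 2.347 CPM (adjusted p = 3.28e-06). Ier3, Dusp2 and Jun had log2 fold changes of 0.60, 0.49 and 0.44 and Egr1 of 0.43 (edgeR adjusted p = 3.06e-06 for Egr1). Fos, among the fastest and most short-lived of this class, was at 6.612 ± 1.008 and 7.781 ± 0.394 CPM and did not pass (edgeR adjusted p = 0.17). The values of Nr4a2 and Nr4a3 (2.11 and 1.50) lay above those of all 25 tested genes of this list, and that of Nr4a1 (0.75) lay below Egr3, Egr2 and Fosb only. Of 12 heat shock genes 11 were tested, 2 rose (18.2%) and none fell, against 6.04% higher and 4.84% lower over all genes. Hspa1a rose from 0.9004 to 1.824 CPM and Hspa1b from 3.456 to 5.057 CPM (edgeR adjusted p = 0.00905 and 0.0119). For these near-identical copies the split of reads between them is uncertain. The median of that list was 0.02.

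**Figure D5:**
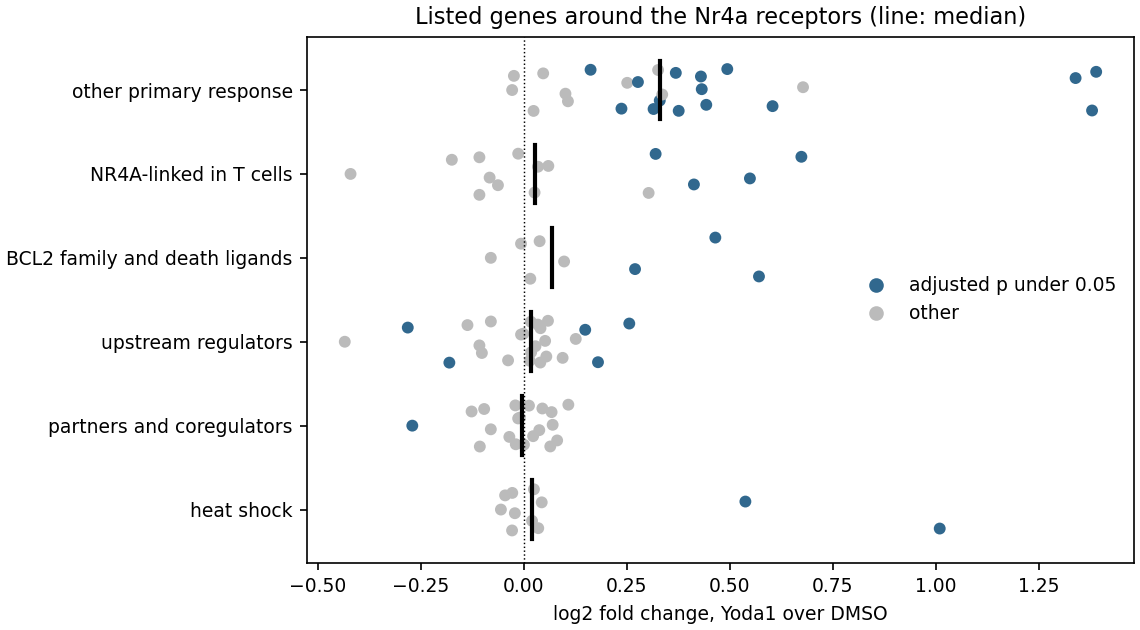
Log2 fold change of Yoda1 over DMSO for each tested gene of 6 lists around the Nr4a receptors, called genes in blue and a black line at each list's median; height within a list only spreads the points. The medians are 0.33 for the primary response genes and between -0.0049 and 0.068 for the other lists.

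Of the 6 nearest protein-coding genes on either side of a member, 5 had enough counts and 1 was called higher. Over all genes tested, 6.04% were called higher and 4.84% lower. Grasp, 21513 bases from Nr4a1, and Atg101, 9477 bases away on the other side, both stood at 0.02 on the log2 scale (adjusted p = 0.934 and 0.879 by edgeR). Stx17 and Sec61b beside Nr4a3 had -0.07 and 0.06 (adjusted p = 0.633 and 0.407). Gpd2, 113632 bases from Nr4a2, rose by 0.18 on the log2 scale (SE 0.045, edgeR adjusted p = 0.00916), and Kcnj3, 1508685 bases away, had no read.

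The genes whose log2 CPM followed each member most closely over the 8 libraries, by Pearson correlation, were Crtam, Emp1 and Ccl3 for Nr4a1 (r = 0.994 each). For Nr4a2 they were E130308A19Rik (0.994), Alcam (0.992) and Itga4 (0.991), and for Nr4a3 they were Csrnp1 (0.996), Tgtp1 (0.995) and Tiam2 (0.994). The members correlated with each other at 0.983 (Nr4a1 and Nr4a2), 0.97 (Nr4a1 and Nr4a3) and 0.993 (Nr4a2 and Nr4a3). All 8 points share the split into 2 groups, which sets most of each r, and the libraries and their depths. Ranked by Spearman correlation, E130308A19Rik alone stayed in the first 3 of its member. The folds of these genes ranged from 1.14 (Tgtp1) to 4.03 (Ccl3, a chemokine, from 61.78 to 247.8 CPM). Tgtp1 shares 223 exon bases with Gm12185 on the same strand. Itga4 shares 1124 with Cerkl and Tiam2 shares 142 with Tfb1m, both on the opposite strand. The reads of these pairs may not be separate.

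The same promoter table gave the response of other genes that hold these motifs. Of 102 tested genes with an NBRE, the site to which NR4A proteins bind, 8 were higher (7.84%) and 7 lower (6.86%), with a median log2 fold change of -0.012. Over the 9316 tested genes with a promoter in that table, 6.14% were higher and 4.87% lower. Of 347 genes with the full CRE 28 were higher (8.07%) and 15 lower (4.32%), and of 59 genes with 4 or more core motifs, as in the Nr4a promoters, 3 were higher and 3 lower (5.08% each). No difference between these shares was tested.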

How the data were processed

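Poly(A) mRNA of 4 Yoda1 and 4 DMSO samples was sequenced from a directional library kit. For each sample the authors deposited raw counts of reads by gene symbol, without normalization. The study's methods name FASTX Trimmer, BBMap and Cufflinks, and the submitters' processing notes name TopHat and mm10; their versions, the annotation and the use of strand are not given in the sources used here. Samples were grouped by their titles. The members and lists were chosen with earlier results of these data known.

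Counts were filtered with filterByExpr (minimum count 10, minimum total 15), scaled with TMM and tested with edgeR 4.0.16 (R 4.3.3, robust quasi-likelihood fit), and p-values were adjusted by Benjamini-Hochberg over 12239 genes at 0.05. Correlations used log2 CPM with a prior count of 2. In simulated counts for these 12239 genes, of which 12158 passed the filter, 71, 62 and 67 genes were changed by 0.5, 1 and 2 on the log2 scale. The test recovered 88.7%, 100% and 98.5% of them, and 5.45% of its calls were false. Changes under 0.5 were not simulated, although several calls given above were smaller, such as Gpd2 at 0.18. Replicates of a group differed by more than counting noise (chi-square per gene 2.04 to 6.94), so all 8 were kept. The counting errors given beside the spread between libraries cover counting only. Symbols were matched to GENCODE M21 for 22148 of 23183 genes (95.5%), and all 3 members matched the RefSeq promoter table.

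Genes named are the members, in each list the called genes up to the 6 of largest change plus a fixed set called or not, the 3 genes most like each member, the neighbours, and markers as members of their list. Alternatives were DESeq2 1.42.0, limma-voom (limma 3.58.1), upper-quartile and RLE factors, library size only, 2 other filters, the replicate number as a block, each library left out, the longest transcript and Spearman correlation.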

Additional observations from a re-analysis of the deposited data

Results flagged for a closer look

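None of the 3 Nr4a genes had a library that stood apart from the rest of its group. Dixon's test of the most extreme library at the 95% level was applied to 108 groups of 4 libraries among the named genes, of which 7 passed, and chance would give about 5.4. In DMSO replicate 4, Ccl3 was at 77.16 CPM (next library 58.54), Emp1 at 43.31 CPM (next 36.53) and Fasl at 11.46 CPM (next 8.16). In DMSO replicate 1, Rora was at 541.7 CPM, under the next value of 600.3 CPM. In Yoda1 replicate 2, Bcl2l11 was at 13.33 CPM (next 11.62) and Csrnp1 at 64.17 CPM (next 62.81), and in Yoda1 replicate 1 Emp1 was at 81.21 CPM (next 75.04).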

How the results depend on the processing

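The log2 fold changes of the 3 Nr4a genes kept their direction under every alternative run, at 0.71, 2.08 and 1.47 for Nr4a1, Nr4a2 and Nr4a3 with upper-quartile factors. With the replicate number as a block they were 0.75, 2.11 and 1.51, and 548 genes were higher and 418 lower. The block has no basis in the labels, and same-numbered libraries deviated with correlations of -0.0277 to 0.0711. Of 12239 genes, 592 were lower in the comparison reported, 958 with upper-quartile factors, 372 with DESeq2 and 367 to 677 with each library left out in turn (lowest without DMSO replicate 2, highest without DMSO replicate 1, and 374 without Yoda1 replicate 4). The split of higher against lower was 739 to 592 as reported, 505 to 958 with upper-quartile factors and 553 to 809 with library size only. Of the partner genes 1 was called as reported, 4 with upper-quartile factors, 3 with library size only, 2 with no filter and 0 to 2 with a library left out. The 4 calls among other nuclear receptors became 1 to 4, and the 4 among genes linked to NR4A factors in T cells became 4 to 7, with a library left out. Single genes other than the members were followed too, namely those named outside the marker lists and the remaining called primary response genes. Among them 894 values stayed on their side of the threshold, 31 lost the call, 2 gained it and 0 reversed. Of the 31, 6 came from Maff, a primary response gene not described above. The cause of these changes was not tested. Nr4a2 rests on 65 to 110 reads per DMSO library, which limits the precision of its fold.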
